A study of Homo sapiens with 21 samples.

Results

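ARID1B was silenced on its own in the human neuroblastoma line SK-N-BE(2), which carries amplified MYCN, and accessible chromatin was measured by ATAC-seq. The assay relies on a transposase that cuts and tags exposed DNA, so that a more open site yields more reads. The comparison took every library of the short hairpin RNA (shRNA) groups shARID1B.2 and shARID1B.3 with those of Control, that is 9 of the 21 libraries of the series (3 per group), and contrasted the mean of both hairpins with Control over all sites. All groups received lentiviral particles, Control with a non-silencing shRNA, and were collected after 72 h as biological triplicates of 1 cell line. The other 12 libraries, 6 after ARID1A silencing and 6 after combined silencing, entered only to show where ARID1B silencing differed.

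ARID1A and ARID1B are large DNA-binding subunits of the BAF (mSWI/SNF) chromatin remodeller. A BAF complex carries one or the other, and either holds the catalytic ATPase module on the core. BAF slides or evicts nucleosomes, mostly at enhancers, and neuroblastoma cells depend on enhancers that drive adrenergic transcription factors such as HAND2 and GATA3.

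The central 300 bases of sites that closed or opened most with both hairpins are shown, from GRCh38, forward strand, because the letter strings described further on were searched in such windows. Capitals in the first 5 mark the E-box CATCTG and the GATA letters AGATAA on either strand, and capitals in the last mark the internal B box of a tRNA gene, searched as GTTCGANTC on both strands. They are the largest and next largest fall, the largest and the third largest rise, the largest promoter fall and the largest promoter rise, among sites with a mean of at least 1 CPM (the read count of a site scaled to a common library size). The rise between them, at UBE2K, lies in a final exon and is not shown.
LOC101928426 (chrX:124256225-124256524): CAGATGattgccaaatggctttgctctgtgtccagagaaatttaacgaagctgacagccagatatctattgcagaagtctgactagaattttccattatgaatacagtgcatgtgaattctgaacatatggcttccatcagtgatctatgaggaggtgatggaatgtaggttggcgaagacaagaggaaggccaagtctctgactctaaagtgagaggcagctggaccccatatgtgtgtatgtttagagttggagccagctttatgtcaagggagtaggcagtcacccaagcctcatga
LOC101928519 (chr6:19070451-19070750): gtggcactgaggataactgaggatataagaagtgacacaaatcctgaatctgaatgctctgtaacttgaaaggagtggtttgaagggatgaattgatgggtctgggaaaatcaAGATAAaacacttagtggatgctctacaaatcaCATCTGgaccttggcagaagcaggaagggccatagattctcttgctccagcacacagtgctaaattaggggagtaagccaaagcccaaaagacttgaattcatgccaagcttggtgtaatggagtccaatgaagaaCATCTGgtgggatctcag
RNF187 (chr1:228490497-228490796): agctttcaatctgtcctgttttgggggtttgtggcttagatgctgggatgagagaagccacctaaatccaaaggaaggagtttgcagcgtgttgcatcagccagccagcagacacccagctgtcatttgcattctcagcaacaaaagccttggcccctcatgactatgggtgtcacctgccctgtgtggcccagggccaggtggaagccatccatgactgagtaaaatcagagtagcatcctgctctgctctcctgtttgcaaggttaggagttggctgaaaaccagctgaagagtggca
LINC00358 (chr13:62702956-62703255): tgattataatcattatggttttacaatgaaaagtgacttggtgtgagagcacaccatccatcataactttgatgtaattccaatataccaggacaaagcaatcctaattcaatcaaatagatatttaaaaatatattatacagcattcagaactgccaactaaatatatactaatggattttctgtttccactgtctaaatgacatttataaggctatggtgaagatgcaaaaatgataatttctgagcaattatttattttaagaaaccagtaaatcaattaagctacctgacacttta
LOC102724247 (chr12:20264717-20265016): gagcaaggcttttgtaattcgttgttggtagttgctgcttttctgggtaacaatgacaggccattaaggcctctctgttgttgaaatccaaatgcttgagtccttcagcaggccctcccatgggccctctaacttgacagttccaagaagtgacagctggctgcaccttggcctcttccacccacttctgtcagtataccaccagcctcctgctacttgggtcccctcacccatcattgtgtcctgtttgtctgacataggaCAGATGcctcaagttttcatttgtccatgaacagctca
TRNAS24 (chr6:27541714-27542013): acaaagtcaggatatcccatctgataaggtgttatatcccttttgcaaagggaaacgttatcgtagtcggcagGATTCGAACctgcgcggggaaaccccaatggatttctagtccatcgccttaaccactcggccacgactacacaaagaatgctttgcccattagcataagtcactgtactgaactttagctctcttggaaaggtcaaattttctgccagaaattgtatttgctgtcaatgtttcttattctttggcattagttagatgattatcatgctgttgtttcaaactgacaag
The windows at LOC101928426 and LOC102724247 held 1 match each, the window at LOC101928519 held 3, those at RNF187 and LINC00358 held 0, and the tRNA window held 1 B box. A match is a string of letters and not a measured binding site.

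Libraries held 18001445 to 44472230 reads in sites, with 21292613 to 25188802 in Control, 18001445 to 21634157 in shARID1B.2 and 23104850 to 44472230 in shARID1B.3. Control replicate 2 stood apart from the other Control libraries, with a chi-square per degree of freedom over sites of 1.73 and 1.94 against 1.09 between the other 2. Replicate pairs of the hairpin groups gave 1.22 to 1.45. The adrenergic label was checked at start sites: 6 of 8 adrenergic genes had a site within 1 kb and 4 lay at or above the promoter median of 10.9 CPM, with 43.8 CPM at HAND2 in Control. Of 5 leukocyte genes 1 had a site, at 1.76 CPM, and of 3 hepatocyte genes none did. Of 4 epithelial genes 2 had a site, both below the promoter median, and of 3 skeletal muscle genes all had one, with MYOD1 at 12.7 CPM. The targeted gene ARID1B had 12 tested sites, 1 closed and 0 opened in the averaged contrast, and none changed with both hairpins. Its site in exon 1, 729 bases from the start site (chr6:156776532-156780619), measured 42.5, 37.1 and 42.2 CPM in Control, 40.2, 43.3 and 40.5 with shARID1B.2 and 47.5, 49.6 and 42.4 with shARID1B.3. These groups overlapped (log2 change 0.11 ± 0.07 SE, FDR 0.432, edgeR quasi-likelihood test). An shRNA acts on the transcript, so accessibility at the gene does not measure its silencing.

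Sites closed far more often than they opened. Of 357029 tested sites, 12602 closed (3.53%) and 4994 opened (1.4%) in the averaged contrast at a false discovery rate (FDR) under 0.01 by the edgeR quasi-likelihood test, the rule for every call given. In either direction 4.93% were called. With each hairpin and in the average, 4323 sites closed (1.21%) and 819 opened (0.229%), 1.44% in all, so 84.1% of the sites changed with both were closed. The median averaged log2 change was -0.94 over the closed and 0.66 over the opened sites. In the average 1887 of the closed and 137 of the opened changed by at least 1 on the log2 scale. With each hairpin also required to reach 1, these were 1053 and 81. The closed sites lay nearest to 2935 genes and the opened ones to 771. All 6 ARID1B libraries lay below all 3 Control libraries at 4269 of the closed sites and above them at 789 of the opened ones, where 5.35% and 2.98% of all tested sites did so. Without Control replicate 2, 463 sites opened with both hairpins and 2491 in the average. Without replicate 2 or replicate 3 of shARID1B.2, 486 and 495 opened with both. Scaling on promoter sites alone moved the median of all sites by -0.15 and raised the closed share of the averaged calls from 71.6% to 92.1%, with 315 sites opened with both hairpins.

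The hairpins differed in reach. The shARID1B.2 libraries had 6549 lower (1.83%) and 4789 higher sites (1.34%), 3.18% of the tested sites. The shARID1B.3 libraries had 17437 lower (4.88%) and 11166 higher sites (3.13%), 8.01% of the tested sites. Sites closed with both made up 66.0% of those closed with shARID1B.2 and 24.8% of those closed with shARID1B.3. Sites opened with both made up 17.1% and 7.33% of those opened with each. In opposite directions 595 sites were called, 467 of them higher with shARID1B.2 and lower with shARID1B.3. Compared directly, 15196 sites were lower (4.26%) and 10564 higher (2.96%) with shARID1B.3 than with shARID1B.2, 7.22% in all. Within the sites closed with both, 860 were lower and 57 higher with shARID1B.3, and within those opened with both, 37 were lower and 29 higher. Replicates 1 and 2 of shARID1B.3 were also the deepest of the 9 libraries, while its replicate 3 lay within the Control range. After every library was thinned to the shallowest total, 5152 sites closed with shARID1B.2 and 12267 with shARID1B.3. Several of these counts fell when 1 library was left out, which also leaves fewer replicates to call a change. Without shARID1B.2 replicate 3, 4233 sites closed and 2998 opened with that hairpin. Sites opened with shARID1B.3 numbered 7021 without Control replicate 2 and 7363 without shARID1B.3 replicate 2. Sites higher with shARID1B.3 than with shARID1B.2 numbered 6464 and 6502 without replicate 1 or replicate 3 of shARID1B.2 and 6900 without replicate 2 of shARID1B.3.

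The sites where the hairpins differed most were chosen for that difference and are given as a description. In an intron of FAN1, a DNA repair nuclease gene (listed under HERC2P10, chr15:30845439-30847533), CPM was 0.815, 0.737 and 0.879 in Control, 7.28, 8.21 and 6.83 with shARID1B.2 and 0.779, 0.882 and 0.964 with shARID1B.3. The combinations measured 0.884 ± 0.229 for shARID1A/B.2.3 and 6.94 ± 0.379 for shARID1A/B.4.2 (SD, n = 3). A site 111694 bases from NPY, the neuropeptide Y gene (chr7:24395396-24396368), gave 2.11, 2.62 and 1.84 CPM in Control, 1.13, 0.844 and 0.963 with shARID1B.2 and 7.23, 7.57 and 6.58 with shARID1B.3, and both combinations stayed at 1.88 or below. LINC00907 and LOC101927995 sites were above Control with shARID1B.2 and below it with shARID1B.3, at means of 2.12 and 0.190 CPM and of 4.00 and 0.468 CPM. POPDC2 and LOC646588 sites were higher with shARID1B.3, at 2.11 and 5.21 CPM against 0.280 and 0.754 with shARID1B.2, and at 1.52 and 1.90 in shARID1A/B.2.3.

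**Figure D1:**
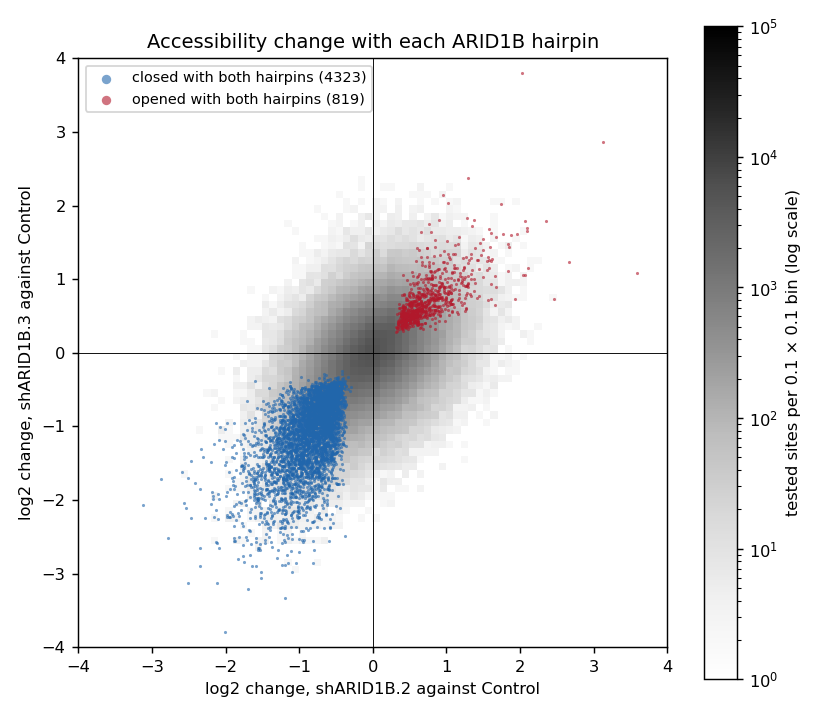
Log2 accessibility change with shARID1B.2 (x axis) and shARID1B.3 (y axis), each against the same 3 Control libraries; grey shows the number of all 357029 tested sites per bin, blue the 4323 sites closed and red the 819 opened with both hairpins. The blue cloud reaches further down the y axis than along the x axis, with medians of -1.05 with shARID1B.3 and -0.82 with shARID1B.2.

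The leading falls, rises and promoters named here were taken only from sites without overlap between ARID1B and Control libraries. Their lack of overlap is therefore no result, and a choice made in the ARID1B libraries tilts comparisons with ARID1A silencing towards ARID1B. The closed sites with the largest changes were distal, in introns or between genes. The first lay 77617 bases upstream of LOC101928426, a long non-coding RNA (chrX:124255814-124256934), and measured 4.89, 5.69 and 5.28 CPM in Control, 0.993, 0.788 and 0.963 with shARID1B.2 and 0.640, 0.581 and 0.587 with shARID1B.3. Both hairpin groups lay well below Control (log2 change -2.82 ± 0.16 SE, FDR 6.11e-27). The next, in the last intron of LOC101928519 (chr6:19070343-19070857), gave 5.32, 4.46 and 4.48 CPM in Control, 0.993, 1.13 and 0.688 with shARID1B.2 and 0.695, 0.557 and 0.671 with shARID1B.3. The log2 change was -2.62 ± 0.16 SE (FDR 4.13e-24), and the site was also low after ARID1A silencing, at 1.11 CPM with shARID1A.2 and 0.615 with shARID1A.4.

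ITGA4 encodes the integrin alpha 4 chain, an adhesion receptor for fibronectin and VCAM1. A site in its intron 22 (chr2:181528488-181529092) measured 3.69, 3.52 and 3.16 CPM in Control, 0.804, 0.731 and 0.505 with shARID1B.2 and 0.528, 0.511 and 0.629 with shARID1B.3. It fell with either hairpin (log2 change -2.50 ± 0.18 SE, FDR 2.62e-20; the hairpins differed by -0.31 ± 0.30 SE). FRZB encodes a secreted WNT antagonist, and a 209-base site in its intron 1 (chr2:182863769-182863977) fell from 2.93, 3.15 and 2.60 CPM to 0.898, 0.563 and 0.550 with shARID1B.2 and 0.501, 0.464 and 0.377 with shARID1B.3. A site 272273 bases upstream of RARB, a retinoic acid receptor gene (chr3:25155623-25156358), fell from 2.49, 3.07 and 2.84 CPM to 0.851, 0.506 and 0.550 and to 0.334, 0.581 and 0.461. The log2 changes at FRZB and RARB were -2.37 ± 0.20 and -2.35 ± 0.21 (SE), with FDR 1.02e-16 and 7.09e-16.

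A site near LINC01105 (chr2:5911386-5912543), 20723 bases upstream of that non-coding gene, was the most accessible of the leading falls, with 19.3, 23.3 and 20.1 CPM in Control. It measured 6.76, 5.79 and 6.83 CPM with shARID1B.2 and 2.36, 2.04 and 2.47 with shARID1B.3 (log2 change -2.45 ± 0.10 SE, FDR 1.10e-36). The hairpin groups themselves did not overlap, shARID1B.3 being lower by 1.51 on the log2 scale. A site in intron 2 of LINC00410 (chr13:90909977-90910803) gave 6.52, 8.11 and 6.31 CPM in Control, 1.61, 1.74 and 1.51 with shARID1B.2 and 0.807, 0.743 and 0.880 with shARID1B.3. Its levels after ARID1A silencing were 3.85 ± 0.584 and 3.91 ± 0.406 CPM (SD, n = 3), higher than after ARID1B silencing (log2 difference, ARID1B minus ARID1A, -1.76 ± 0.14 SE, FDR 1.34e-18). The last of the 8, in an intron of FGGY and named for MIR4711 (chr1:59634881-59635628), fell from 3.69, 3.73 and 4.48 CPM to 0.898, 0.900 and 0.917 with shARID1B.2 and 0.751, 0.581 and 0.671 with shARID1B.3.

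**Figure D2:**
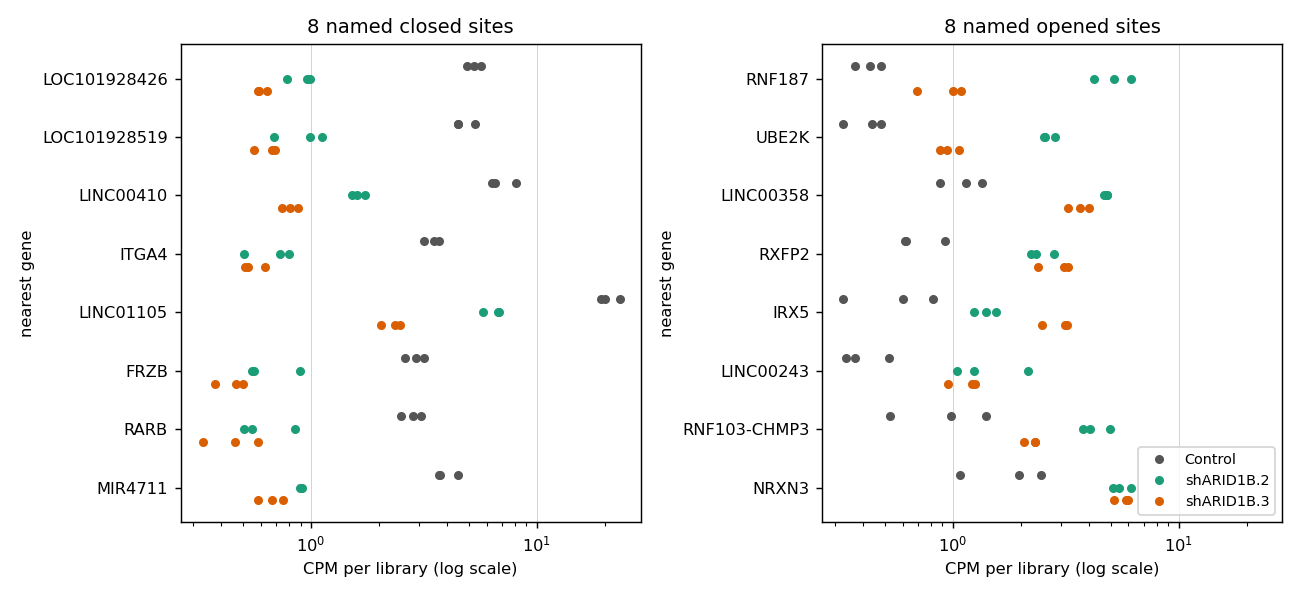
CPM in each of the 9 libraries (log scale, 1 point per library) at the 8 closed and 8 opened sites with the largest changes, labelled by nearest gene and coloured by group. The 16 sites were chosen among sites without overlap between ARID1B and Control libraries. At RNF187 shARID1B.2 lies at 4.21 to 6.15 CPM against 0.697 to 1.08 with shARID1B.3.

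The opened sites with the largest changes started from low levels, and several depended on the hairpin. The leading one lay in intron 2 of RNF187, a ubiquitin ligase gene (chr1:228490384-228490908), with 0.432, 0.369 and 0.480 CPM in Control, 4.21, 5.18 and 6.15 with shARID1B.2 and 1.08, 0.697 and 1.01 with shARID1B.3. The log2 change was 3.59 with shARID1B.2 and 1.08 with shARID1B.3, a difference of -2.50 ± 0.18 SE (FDR 2.69e-20). The combination shARID1A/B.4.2 measured 5.36 ± 0.431 CPM there and shARID1A/B.2.3 measured 0.847 ± 0.0129 (SD, n = 3). A site in the last exon of PDS5A, named for its neighbour UBE2K (chr4:39823217-39823967), behaved likewise, with 0.480, 0.328 and 0.440 CPM in Control, 2.55, 2.53 and 2.84 with shARID1B.2, 0.946, 1.07 and 0.880 with shARID1B.3, and means of 2.87 with shARID1A/B.4.2 and 0.782 with shARID1A/B.2.3. If the names of the combinations list their hairpins, the sites were high wherever shARID1B.2 was present, but the labels do not spell this out.

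Other leading rises were large with either hairpin. A site in intron 2 of NRXN3, which encodes the synaptic adhesion protein neurexin 3 (chr14:79475899-79476823), measured 1.97, 2.46 and 1.08 CPM in Control, 6.15, 5.46 and 5.14 with shARID1B.2 and 5.20, 5.95 and 5.83 with shARID1B.3 (log2 change 1.62 ± 0.16 SE, FDR 3.19e-14). The levels of the hairpins overlapped each other. After ARID1A silencing it measured 1.03 and 1.58 CPM, below both hairpins of ARID1B (log2 difference 2.14 ± 0.13 SE, FDR 1.00e-23). A site 253817 bases upstream of RXFP2, a relaxin family receptor gene (chr13:31485327-31486124), rose from 0.624, 0.614 and 0.919 CPM to 2.22, 2.81 and 2.34 with shARID1B.2 and 3.12, 3.23 and 2.39 with shARID1B.3. It was lower in the combinations, at means of 1.05 and 1.55 CPM (log2 difference, combined minus ARID1B silencing, -1.09 ± 0.14 SE, FDR 1.03e-09). A site 37831 bases downstream of IRX5, a homeobox gene (chr16:54968604-54969457), gave 0.815, 0.328 and 0.599 CPM in Control, 1.56, 1.41 and 1.24 with shARID1B.2 and 3.20, 3.14 and 2.47 with shARID1B.3. Sites at LINC00358, LINC00243 and RNF103-CHMP3 rose by 1.90, 1.64 and 1.63 on the log2 scale. LINC00358 was the only one of the 8 that was higher still in the combinations, by 0.42 ± 0.09 SE over ARID1B silencing (FDR 0.000371).

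By position, closing was distal, and opening was more frequent at start sites than elsewhere, though most opened sites lay outside promoters. Among 12310 promoter-TSS sites, 50 closed with both hairpins (0.406%) and 195 opened (1.58%). Among 173881 intergenic sites, 2232 closed (1.28%) and 248 opened (0.143%), and later introns were similar, with 1.31% closed and 0.161% opened. Exons lay between, with 0.724% closed and 0.386% opened. Promoters thus held 1.16% of the sites closed with both and 23.8% of those opened with both, where they were 3.45% of all tested sites. Without Control replicate 2 the promoter share of the opened sites was 15.8%. Where a log2 change of at least 1 was required of the average and of each hairpin, it was 3.70%. That lies near the 3.45% of all tested sites. Promoter sites had a median of 11.7 CPM against 1.03 over all tested sites, and more reads make small changes easier to call. Closed sites had a median distance to the start site of 58.9 kb and opened ones of 14.6 kb, against 50.7 kb over all tested sites. Promoter sites took 20.0% to 20.6% of the reads in Control, 20.9% to 21.5% with shARID1B.2 and 21.8% to 23.4% with shARID1B.3, so no hairpin library overlapped Control. Its part in the changes at other sites was not tested beyond the scaling on promoters.

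Base composition and level moved with the calls. Sites were divided into 5 equal classes by GC content. In the poorest class (up to 41.4%) 2.25% closed with both hairpins, and in the richest (from 54.0%) 0.535% did. The opened share was 0.337% in the poorest and 0.402% in the richest class, with 0.102% in the middle one. In the richest class the median log2 change was 0.11 with shARID1B.3 and -0.01 with shARID1B.2. With offsets for GC content, 4994 sites closed and 1369 opened with both hairpins. The most accessible of 4 equal classes of sites by mean CPM held 74.0% of the closed and 85.5% of the opened sites, where more reads also make a change easier to detect. On chromosome 19, rich in genes, 0.13% of 3713 tested sites closed and 2.15% opened with both. Chromosomes 18 and 13 had the highest closed shares, at 2.50% and 2.32%.

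**Figure D3:**
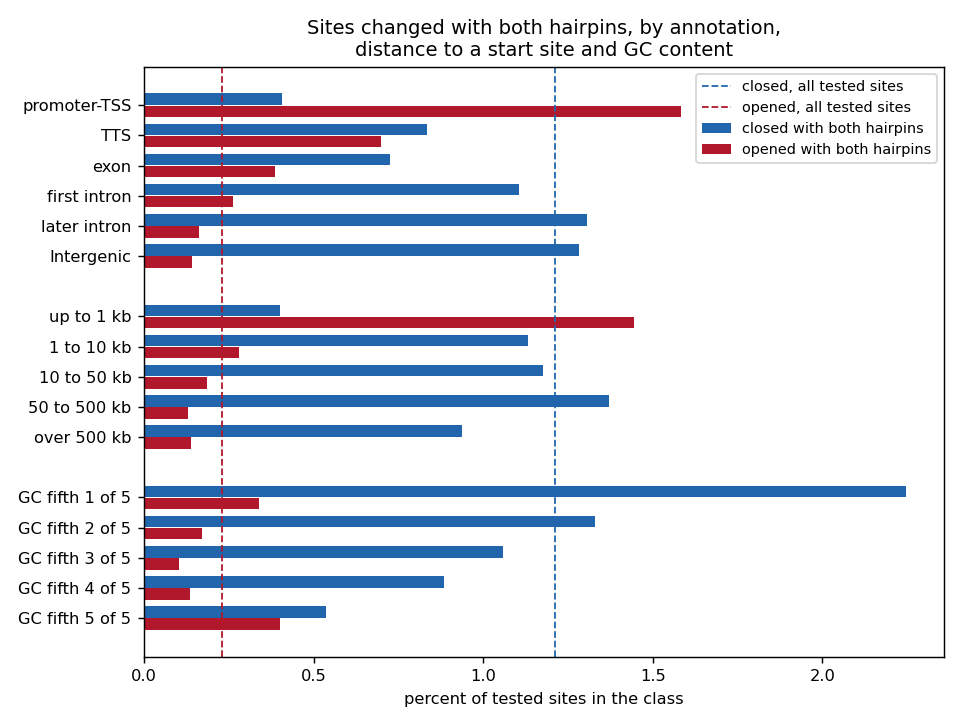
Percent of tested sites closed (blue) or opened (red) with both hairpins, by annotation class, distance to the nearest start site and GC content in 5 equal classes from poorest to richest; dashed lines give the shares over all tested sites, 1.21% and 0.229%. Of the classes plotted, promoter-TSS sites and sites up to 1 kb from a start site are those where opened sites outnumber closed ones.

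Within the central 300 bases the E-box CATCTG, a core of motifs read by bHLH factors such as HAND2 and TWIST1, was the most frequent in closed sites of the letter strings described here, each searched on both strands. It occurred in 36.6% of the sites closed with both hairpins, 14.8% of those opened with both and 23.0% of all tested sites. Outside promoters the shares were 36.7%, 16.8% and 23.4%. The GATA letters AGATAA occurred in 23.0% of closed, 20.8% of opened and 17.0% of all sites. Outside promoters the order of closed and opened sites turned, at 22.9%, 24.8% and 17.4%. Both strings together occurred in 8.21% of closed, 3.17% of opened and 3.96% of all sites. The other E-box, CAGCTG, stood in 20.5% of closed and 17.3% of opened sites (17.6% of all). The AP-1 letters TGANTCA, read by FOS and JUN dimers, occurred in 9.72% of closed and 12.1% of opened sites (10.9% of all). The SP/KLF letters GGGCGG, typical of GC-rich promoters, stood in 5.20% of closed and 24.5% of opened sites (9.06% of all), and outside promoters in 5.08% and 13.0% (7.46% of all). The ETS letters CCGGAAG were in 0.578% of closed and 4.03% of opened sites (1.55% of all), and the CTCF string in 1.48% and 3.17% (2.45% of all). The TEAD letters GGAATG stood in 17.2% and 12.6% (16.8% of all), the RUNX letters TGTGGT in 18.7% and 14.0% (20.1%), and the SOX letters ACAATG in 17.3% and 12.7% (14.8%). The NFI and NRF1 strings were in under 1% of every set. These shares differ with GC content as the sites do and carry no test.

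The promoters that closed most fell by 1.26 to 1.38 on the log2 scale. MC2R encodes the ACTH receptor of the adrenal cortex, and its promoter site (chr18:13916049-13916944) measured 3.93, 4.42 and 3.36 CPM in Control, 2.88, 1.58 and 2.16 with shARID1B.2 and 1.11, 1.07 and 0.922 with shARID1B.3 (log2 change -1.35 ± 0.15 SE, FDR 4.14e-11). A promoter of WWTR1, the gene of the YAP1 partner TAZ, measured 3.50, 3.60 and 3.20 CPM in Control, 1.70, 2.03 and 1.83 with shARID1B.2 and 1.08, 1.05 and 1.22 with shARID1B.3 (chr3:149702838-149704022, listed under the antisense gene WWTR1-AS1, log2 change -1.26 ± 0.15 SE, FDR 4.06e-10). The promoter site of LOC102724247 (chr12:20264675-20265057) fell from 2.93, 2.05 and 2.32 CPM to 0.946, 0.956 and 0.642 and to 0.862, 1.02 and 1.22, and that of SH2D3C, an adaptor protein gene, from 2.30, 1.43 and 2.92 CPM to 1.04, 0.844 and 0.963 and to 1.08, 0.766 and 0.796. All 4 promoters were also low in the combinations, at means of 0.485 to 1.14 CPM.

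All 4 promoters that opened most belonged to tRNA genes. TRNAS24, a serine tRNA gene whose window is printed above (site chr6:27541653-27542073), measured 0.384, 0.696 and 0.360 CPM in Control, 1.56, 1.24 and 1.47 with shARID1B.2 and 1.25, 1.16 and 1.01 with shARID1B.3 (log2 change 1.40 ± 0.26 SE, FDR 3.31e-05). TRNAA6, an alanine tRNA gene (chr6:28811935-28812274), rose from 0.480, 0.737 and 0.839 CPM to 2.69, 1.74 and 2.16 and to 1.56, 1.51 and 1.17. TRNAS7 (chr6:27209625-27210122), another serine tRNA gene, rose from 0.767, 0.696 and 0.679 CPM to 1.47, 2.03 and 2.06 and to 1.28, 1.53 and 1.47. The log2 changes at TRNAA6 and TRNAS7 were 1.35 ± 0.23 and 1.18 ± 0.22 (SE), with FDR 3.55e-06 and 2.92e-05. TRNAP12, a proline tRNA gene (chr16:3170757-3172612), was more accessible, with 4.08, 2.66 and 4.88 CPM in Control, 11.3, 12.9 and 10.4 with shARID1B.2 and 7.18, 6.50 and 5.24 with shARID1B.3 (log2 change 1.14 ± 0.14 SE, FDR 4.27e-10). ARID1A silencing left these 4 sites at 0.456 to 4.40 CPM, and each was higher after ARID1B than after ARID1A silencing, by 0.87 to 1.28 on the log2 scale. The 4 were chosen for their rise in the ARID1B libraries, which tilts this comparison towards ARID1B. Of the 819 sites opened with both hairpins 430 were higher after ARID1B silencing and 2 lower. Of all tested sites 3.69% were higher.

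The whole group of tRNA genes, taken up after these values were seen, was then counted. RNA polymerase III transcribes tRNA genes from promoters inside the gene, the A and B boxes. Of 259 tested sites within 1 kb of a tRNA gene start, 109 opened in the averaged contrast and 0 closed, where 1.4% of all tested sites opened. With both hairpins 63 opened, or 24.3%, where 0.229% of all tested sites did. Of the 259, 242 had a log2 change above 0, as did 8826 of 12122 promoters of other genes and 175490 of the 357029 tested sites. The tRNA sites had a median of 0.31 (0.38 with shARID1B.2 and 0.30 with shARID1B.3) against -0.01 over all sites. The median over these sites, as log2(CPM + 0.1) relative to the Control mean, was -0.05 to 0.04 in Control libraries, 0.33 to 0.41 with shARID1B.2 and 0.20 to 0.35 with shARID1B.3, so no library of either hairpin overlapped Control. Of the 12122 promoters of other genes, 1071 opened (8.84%) and 147 closed, with a median of 0.12, and 150 opened with both hairpins (1.24%). Sites nearest to a tRNA gene but farther than 1 kb numbered 889, of which 28 opened and 42 closed, with a median of 0.02.

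Compared with ARID1A silencing, 112 of the 259 tRNA sites were higher after ARID1B silencing and 0 lower, with a median log2 difference of 0.29, where 3.69% of all tested sites were higher and 1.05% lower (4.74% in all). Among promoters of other genes, 209 were higher and 345 lower, with a median of -0.06. Combined silencing gave lower values than ARID1B silencing at 61 tRNA sites and higher values at 1, with a median of -0.17, where 8.55% of all tested sites were lower and 1.35% higher (9.9% in all). Without shARID1B.2 replicate 3, 3062 of all tested sites were higher, against 4825. Both comparisons share the ARID1B libraries with the contrast in which the group was noticed.

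Serine tRNA genes opened most often among isotypes with over 10 sites, at 15 of 19 sites (9 with both hairpins), followed by asparagine with 13 of 19 (9 with both). Cysteine and valine had 3 of 22 each. In all, 18 of the 21 isotypes represented had a site opened with both. On chromosome 6 between 26 and 29 Mb, where a large tRNA cluster and the main histone cluster lie, 54 of 96 tRNA sites opened with a median of 0.51, and 34 of 147 other sites did with a median of 0.23. With both hairpins these were 32 of 96 and 3 of 147. On chromosome 16, 10 of 15 tRNA sites opened, on chromosome 1, 20 of 49, and on chromosome 7, 1 of 17. The B box letters were in 27 of the 259 windows, and 15 of these 27 opened, against 94 of 232 without them. The string was in 0.108% of all tested windows and in 0.181% of the promoters of other genes. Many tRNA genes are near-identical copies, and no source used here says how reads with several matches were handled, so single tRNA sites are uncertain.

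**Figure D4:**
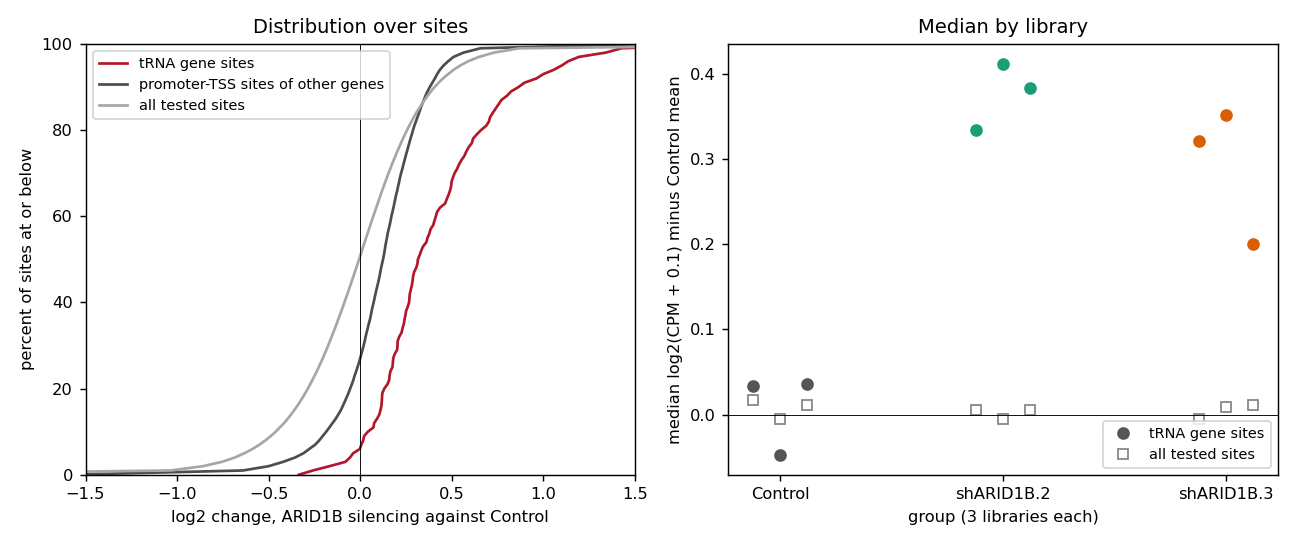
Left, percent of sites at or below each averaged log2 change for the 259 tRNA gene sites, 12122 promoters of other genes and all tested sites; right, median log2(CPM + 0.1) relative to the Control mean in each of the 9 libraries (filled, tRNA gene sites; open squares, all tested sites). The tRNA curve lies to the right of both others, with medians of 0.31, 0.12 and -0.01, and the 6 ARID1B libraries sit between 0.20 and 0.41.

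Histone genes of the replication-dependent class (HIST symbols), the neighbours of the tRNA genes on chromosome 6, had 24 promoter sites, of which 19 opened in the average and 0 closed, with a median log2 change of 0.37, where 9.37% of all promoter-TSS sites opened. With both hairpins 2 opened, where 1.58% of all promoter-TSS sites did. With shARID1B.3 22 opened (median 0.51) and with shARID1B.2 3 did (median 0.24). Of the 12122 promoters of genes other than tRNA genes, 1992 opened with shARID1B.3 (median 0.17) and 313 with shARID1B.2 (median 0.07). When tested directly, 6 of the 24 histone sites were higher with shARID1B.3 than with shARID1B.2, as were 707 of the 12122. This group too was taken up after its values were seen.

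Genes were ranked by the number of sites changed with both hairpins, which favours genes with many tested sites. Over all tested sites 1.21% closed and 0.229% opened with both. By gene, ETS1 had the most sites closed with both hairpins. It encodes an ETS-family transcription factor of mesenchymal and lymphoid cells, and 11 of its 131 tested sites closed and 0 opened with both, by log2 changes of -1.69 to -0.71, over chr11:128178733-128503855. HSF2, a heat shock factor gene, followed with 9 of 97 sites, and ALCAM, which encodes the cell adhesion molecule CD166, with 8 of 91. At ALCAM 18 sites closed in the average, and the median of all its sites was -0.30, against -0.11 at ETS1 and -0.06 at HSF2. LOC102724443 had 8 of 129 sites closed with both, DPYD-AS1 7 of 31 and FSHR, the follicle-stimulating hormone receptor gene, 7 of 66. Sites opened with both were spread more thinly, with 5 of 7 at LOC102724523 on chromosome 16, 4 of 8 at the asparagine tRNA gene TRNAN-GUU, and 3 each at NEAT1 (of 5 sites), TRNAN5 (of 6) and CA5A (of 10). NEAT1 encodes the architectural RNA of paraspeckles and CA5A a mitochondrial carbonic anhydrase. The sites opened with both rose by 0.53 to 0.72 on the log2 scale at NEAT1 and by 1.02 to 1.07 at CA5A.

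Windows were likewise ranked by count, beside the 1.21% closed and 0.229% opened with both hairpins over all tested sites. The 1-Mb window with the most closed sites was 20 to 21 Mb of chromosome 2, with 15 of 250 tested sites near SDC1, LAPTM4A, PUM2, RHOB and APOB and non-coding genes. Windows at 55 to 56 Mb of chromosome 17 (12 of 170, near HLF, MMD, PCTP and TMEM100) and 128 to 129 Mb of chromosome 11 (12 of 224, at ETS1) followed. None of the 3 held a site opened with both. The windows with most opened sites were 27 to 28 Mb of chromosome 6 (21 of 85, 20 of the 21 genes named being tRNA genes), 3 to 4 Mb of chromosome 16 (11 of 85, 8 tRNA genes among them) and 7 to 8 Mb of chromosome 17 (10 of 70). The last held POLR2A, EIF4A1, EIF5A, KDM6B and ACADVL and no tRNA gene, and none of these 3 windows had a site closed with both.

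Gene lists were described by counts beside those of all tested sites, without a test of the list. The median log2 change of each list lay between -0.07 and 0.12, and with scaling on promoter sites all 15 medians lay below 0, between -0.22 and -0.03. In the averaged contrast the lists for neural crest and SOX genes (9.34%), integrins (7.17%) and adrenergic core factors (6.88%) had the highest closed shares, where 3.53% of all tested sites closed. With both hairpins the highest shares were those of AP-1 genes (4.35%, 2 sites), neural crest and SOX genes (3.50%), adrenergic core factors (3.14%) and growth factor genes (2.58%), where 1.21% of all tested sites closed. Of 257 sites at neural crest and SOX genes 24 closed and 1 opened, with 9 closed with both hairpins, 4 of them nearest to FOXD2 and 3 to TFAP2B, a gene that the adrenergic list holds too. The leading site there, 182623 bases from FOXD2, a forkhead gene of neural crest, measured 9.79, 8.97 and 8.67 CPM in Control, 4.16, 3.94 and 4.31 with shARID1B.2 and 2.50, 2.23 and 1.47 with shARID1B.3 (chr1:47618108-47619173, log2 change -1.62 ± 0.12 SE, FDR 1.66e-20). It was lower still after ARID1A silencing, at means of 1.95 and 1.46 CPM (log2 difference, ARID1B minus ARID1A, 0.82 ± 0.13 SE, FDR 1.27e-06).

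Adrenergic core factors had 35 of 509 sites closed and 8 opened, with 16 and 1 in both hairpins and a median log2 change of 0.02. Sites closed with both lay nearest to 10 of the 20 genes, among them TFAP2B with 3. A site 115157 bases upstream of MYCN, the driver oncogene of this line, fell from 14.9, 13.8 and 14.1 CPM to 6.19, 6.58 and 6.93 with shARID1B.2 and 6.81, 6.32 and 7.21 with shARID1B.3 (chr2:15824663-15827117, log2 change -1.10 ± 0.09 SE, FDR 7.84e-17). The hairpins overlapped each other there and not Control, while the median over the 29 sites nearest to MYCN was -0.04. The opened site with both hairpins lay at PHOX2A. Catecholamine genes had 8 of 131 sites closed (6.11%) and 2 opened, with 2 closed in both (1.53%). In intron 4 of SLC18A1, a vesicular monoamine transporter gene, a site fell from 4.08, 3.28 and 4.20 CPM to 2.36, 2.48 and 1.93 and to 1.28, 0.673 and 0.796 (log2 change -1.42 ± 0.16 SE, FDR 7.84e-12).

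Integrin genes had 19 of 265 sites closed and 0 opened, 4 of them closed with both hairpins, at ITGA9 (2), ITGA4 and ITGA1. With both hairpins this was 1.51%, near the 1.21% of all tested sites. Cadherin genes had 35 of 860 closed and 6 opened, with 12 and 0 in both. Their closed shares of 4.07% in the average and 1.40% with both lay near the 3.53% and 1.21% of all tested sites. At CDH18 a site in intron 1 gave 17.2, 20.6 and 16.8 CPM in Control, 13.5, 13.3 and 13.1 with shARID1B.2 and 8.23, 8.59 and 8.68 with shARID1B.3 (log2 change -0.78 ± 0.09 SE, FDR 1.43e-11). Matrix and crosslinking genes had 36 of 614 closed (5.86%) and 3 opened, with 8 closed in both (1.30%). In COL1A2, a type I collagen gene, an intron 20 site fell from 8.35, 9.75 and 8.95 CPM to 3.40, 3.26 and 3.39 and to 4.84, 3.88 and 4.57 (log2 change -1.23 ± 0.11 SE, FDR 1.88e-15). Mesenchymal factors had 6 of 280 closed and 0 opened, below the 3.53% of all sites. Of these, a site in an intron of HDAC9, 273219 bases from TWIST1, fell from 7.48, 6.92 and 6.39 CPM to 3.83, 2.76 and 4.63 and to 2.06, 1.81 and 1.47. After ARID1A silencing it stayed at means of 5.04 and 5.93 CPM, above ARID1B silencing (log2 difference -1.06 ± 0.11 SE, FDR 2.28e-13).

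Growth factor receptor and ligand genes had 32 of 621 sites closed (5.15%) and 6 opened, 16 of them closed with both hairpins at 11 genes. The leading one, in an intron of WDR70 and 114733 bases from GDNF, the ligand of RET, measured 13.8, 17.4 and 13.7 CPM in Control, 6.24, 7.09 and 7.66 with shARID1B.2 and 1.86, 2.02 and 1.76 with shARID1B.3 (log2 change -2.04 ± 0.10 SE, FDR 7.71e-29). Axon guidance genes had 109 of 2077 closed (5.25%) and 15 opened (0.722%), with 31 (1.49%) and 3 in both, led by EFNA5 and PLXNA2 with 5 closed sites each. In intron 11 of NRP2, a semaphorin and VEGF co-receptor gene, a site fell from 28.0, 24.9 and 26.3 CPM to 11.5, 12.9 and 12.8 and to 8.98, 8.62 and 7.46 (log2 change -1.37 ± 0.08 SE, FDR 2.28e-24). It was lower again in the combinations, at means of 4.99 and 7.58 CPM. In every one of these named sites all 6 ARID1B libraries lay below all 3 Control libraries. They were chosen among sites closed with both hairpins, where 4269 of 4323 did so, against 5.35% of all tested sites. Their lack of overlap is therefore no separate result.

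G1/S cell cycle genes had 0 of 127 sites closed and 7 opened (5.51%), where 3.53% of all tested sites closed and 1.4% opened. Of all promoter-TSS sites 9.37% opened. The G1/S sites had a median log2 change of 0.10, or -0.05 with scaling on promoter sites. The opened ones lay at CCND1, CCNE1, CCNE2, CDK4, CDK6 and CDKN2B, and none opened with both hairpins. AP-1 genes had 2 of 46 closed (4.35%, near the 3.53% of all tested sites) and 4 opened (8.70%). Of all tested sites 1.4% opened and of promoter-TSS sites 9.37%, and the 46 were counted by nearest gene and not only at promoters. The closed sites lay at ATF3 and FOSL2, and opened ones at FOS, FOSB, JUNB and JUND, of which the FOS site opened with both hairpins. The ATF3 site fell from 9.26, 8.48 and 10.1 CPM to 5.30, 6.19 and 5.78 and to 3.62, 3.20 and 2.98 (log2 change -1.10 ± 0.11 SE, FDR 4.53e-14). SWI/SNF subunit genes had 20 of 369 closed (5.42%) and 10 opened (2.71%), with 9 (2.44%) and 0 in both. At ARID1A, the paralogue, 2 of 4 sites opened in the average and none with both. A site 61553 bases upstream of BRD7, a PBAF subunit gene, measured 9.93, 7.33 and 9.07 CPM in Control, 5.67, 5.34 and 5.32 with shARID1B.2 and 1.75, 2.60 and 2.26 with shARID1B.3 (log2 change -1.33 ± 0.11 SE, FDR 1.62e-16).

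Of the remaining lists, NOTCH pathway genes had 8 of 166 closed (4.82%) and 6 opened (3.61%), and a site in intron 1 of RBPJ, the DNA-binding effector of NOTCH, fell by 0.93 on the log2 scale (± 0.09 SE, FDR 4.88e-13). TGF-beta and BMP genes had 26 of 861 closed (3.02%) and 7 opened (0.813%), below the shares of all tested sites, and 0.929% closed with both. An intron 1 site of BMPR1B, a BMP receptor gene, fell by 1.08 (± 0.14 SE, FDR 1.35e-09). Glutamate and GABA receptor genes had 38 of 1596 closed (2.38%) and 7 opened (0.439%), also below the 3.53% and 1.4% of all tested sites. A site 97435 bases upstream of GRIK2, a kainate receptor gene, fell by 1.37 (± 0.11 SE, FDR 5.03e-18).

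**Figure D5:**
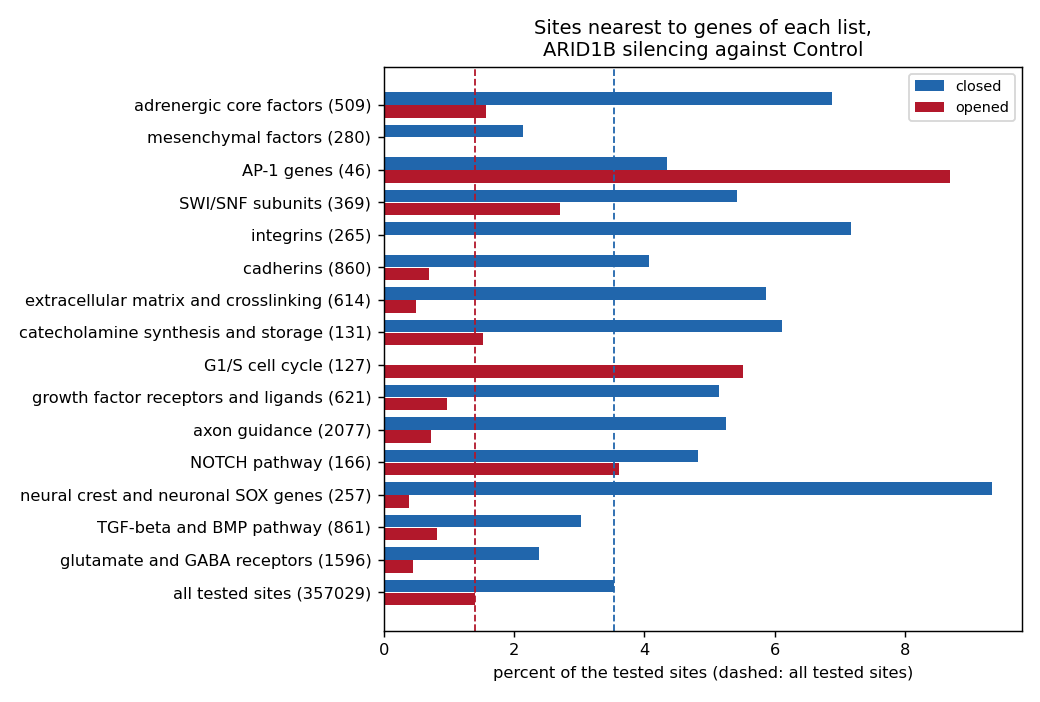
Percent of tested sites closed (blue) and opened (red) in the averaged contrast among sites nearest to the genes of each list, with the number of tested sites in parentheses; dashed lines mark all tested sites, 3.53% and 1.4%. Closed shares range from 0 of 127 sites at G1/S genes to 24 of 257 at neural crest and SOX genes.

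Set against ARID1A silencing, the sites closed with both ARID1B hairpins were lower after ARID1B silencing at 836 and higher at 242, with a median log2 difference of -0.14, and those opened with both were higher at 430 and lower at 2, with a median of 0.38. Choosing sites through ARID1B libraries tilts these counts towards ARID1B. Over all tested sites 3741 were lower after ARID1B than after ARID1A silencing (1.05%) and 13180 higher (3.69%). Combined silencing lay below ARID1B silencing at 2094 of the sites closed with both and above it at 44, with a median of -0.42, where 8.55% of all tested sites were lower and 1.35% higher. At the sites opened with both it lay below at 336 and above at 42, with a median of -0.21.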

How the data were processed

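ATAC-seq reads were counted by the authors in consensus sites called over merged replicates. The deposited tables hold raw read counts per site and library, the HOMER annotation of each site, and normalised counts with DESeq2 comparisons that were not used. The build is GRCh38 per the submitters' processing notes, and no source used here names the aligner, the peak caller or how reads with several matches were handled. The consensus sites were called across the libraries compared, so site borders were shared.

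The raw counts of all 21 libraries (16140029 to 44472230 per library) were fitted in 1 model of 7 groups with edgeR 4.0.16 in R 4.3.3 (limma 3.58.1), using TMM scaling and the quasi-likelihood test. The minimum count of 10 removed 10871 of 367900 sites. Common BCV was 0.0817. Benjamini-Hochberg FDR under 0.01 over the 357029 tested sites was the call. CPM carry the TMM factors. SE of log2 changes came from the fit, and mean ± SD from CPM of 3 libraries. Libraries were grouped by their labels. The triplicates came from 1 cell line, so p-values measure the spread between these cultures. Each hairpin was a fixed group, so the SE and FDR of the averaged contrast leave out the spread between hairpins.

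Named sites were the top 8 falls and top 8 rises by log2 change among those called in the average and with each hairpin, with a mean of at least 1 CPM over the 9 libraries, no overlap between ARID1B and Control libraries and 1 site per nearest gene. The same rule gave 4 promoters each way. Also named were the 6 genes and 3 windows of 1 Mb with most such sites each way, the site of smallest p in each of 15 gene lists, the 3 sites each way with the largest difference between hairpins, and the site nearest to the ARID1B start. The members and lists were chosen with earlier results of these data known, and the tRNA and histone groups after their values were seen. Some genes that met these rules are not reported here. Sequences came from the GRCh38 reference. The nearest gene need not be the gene a site regulates. Scripts were tested on simulated data. Alternatives were DESeq2 1.42.0, other scalings, offsets for GC content and abundance, no filter, thinned counts, other thresholds, the 9 libraries alone, a replicate block and each library left out.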

Additional observations from a re-analysis of the deposited data

Results flagged for a closer look

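At 18 of the named sites that changed with both hairpins, and at the 6 sites named for it, the change differed between the hairpins in the edgeR quasi-likelihood test of shARID1B.3 against shARID1B.2 (FDR under 0.01). Over all tested sites 7.22% differed between the hairpins in that test. Of the 4323 sites closed with both hairpins, 860 were lower and 57 higher with shARID1B.3. Of the 819 opened with both, 37 were lower and 29 higher. Values below are log2 differences, shARID1B.3 minus shARID1B.2.

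Among the leading falls, shARID1B.3 was lower by -1.01 at LINC00410 and -1.51 at LINC01105, and at promoters by -1.09 at MC2R and -0.74 at WWTR1-AS1. Sites named from gene lists were lower by -1.06 at TWIST1, -0.80 at ATF3, -1.29 at BRD7, -0.65 at CDH18, -1.29 at SLC18A1, -1.88 at GDNF, -0.56 at NRP2, -0.96 at FOXD2 and -1.64 at GRIK2. All 13 of these sites closed further with shARID1B.3, which was also the more common direction over all sites closed with both hairpins. Among the rises, the difference was -2.50 at RNF187, -1.43 at UBE2K, -0.95 at RNF103-CHMP3 and -0.85 at TRNAP12, where shARID1B.2 opened the site more, and 1.08 at IRX5, where shARID1B.3 did.

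The sites named for the difference had values of -3.48 at LINC00907, -3.09 at LOC101927995 and -3.09 at HERC2P10, and of 2.92 at POPDC2, 2.85 at NPY and 2.77 at LOC646588. A choice made on the difference makes these values large.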

How the results depend on the processing

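Each result was recomputed under 21 alternatives where it could be. Of 945 values at named sites 941 kept direction and side of the threshold. The exceptions were CDH18 and RBPJ, which fell short of a log2 change of 1, and the ARID1B exon site, which was not called and changed sign to -0.032 with scaling on promoter sites and -0.014 with abundance-trended offsets. Of 698 summary values 586 stayed within 1.5 times the reported count, or within the replicate spread for shares and medians. The cause of the other changes was not tested, except that thresholds act by construction.

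With scaling on promoter sites 21271 sites closed and 1814 opened in the average, 3106 opened with shARID1B.2, 30358 closed and 3694 opened with shARID1B.3, and 6622 closed and 315 opened with both. In shARID1B.3 5841 were then higher than in shARID1B.2, and 1474 in combined silencing than in ARID1B silencing. Promoters held 2.45% of closed and 28.9% of opened sites, and 71 tRNA sites opened, 27 with both (median 0.17). List medians were -0.12 (adrenergic), -0.13 (mesenchymal), -0.026 (AP-1), -0.16 (SWI/SNF), -0.19 (integrins), -0.21 (cadherins), -0.22 (matrix), -0.060 (catecholamine), -0.046 (G1/S), -0.19 (growth factor), -0.20 (axon guidance), -0.12 (NOTCH), -0.21 (neural crest), -0.18 (TGF-beta) and -0.15 (glutamate). The tRNA median stayed 0.29 to 0.35 above that of all sites in every alternative that refitted the counts.

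DESeq2 gave 7425 sites opened with shARID1B.3, 6719 higher than with shARID1B.2 and 2837 higher in combined silencing, a count that was 7566 with total counts and 7968 with abundance-trended offsets. Promoters held 2.45% of closed sites with abundance-trended offsets, and 31.9% of opened sites with total counts and 29.3% with thinned counts. With GC offsets 1369 sites opened with both, and promoters held 1.56% of closed and 27.5% of opened sites. The growth factor median was -0.029 with DESeq2, -0.030 with its size factors, -0.028 with the 9 libraries alone, -0.054 with total counts and -0.020 without a filter. Without a filter the medians were -0.021 for integrins, -0.031 for axon guidance and -0.012 for TGF-beta.

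At FDR under 0.05, 18914 sites closed and 10672 opened in the average, 11512 and 9298 with shARID1B.2, 20442 opened with shARID1B.3, and 6923 closed and 2219 opened with both. Between hairpins 23143 were lower and 18869 higher, 7396 were lower after ARID1B than ARID1A silencing and 13184 higher in combined silencing. Where a change of 1 or more on the log2 scale was also required, closed and opened sites were 3179 and 534 in the average, 1832 and 1510 with shARID1B.2, 6871 and 2451 with shARID1B.3, and 1053 and 81 with both. Between hairpins they were 5960 and 3613, against ARID1A silencing 288 and 2071, and in combined silencing 5964 and 250. Promoters held 0.285% of closed and 3.70% of opened sites, 17 tRNA sites opened, 8 with both, and 28 were higher than after ARID1A silencing.

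With 1 library left out, sites opened in the average ranged from 2491 to 5798, closed with shARID1B.2 from 4233 to 6535, opened with it from 2998 to 5032, opened with shARID1B.3 from 7021 to 11643, higher with shARID1B.3 than shARID1B.2 from 6464 to 12349, higher in combined silencing from 3062 to 6657 and opened with both from 463 to 878. The promoter share of opened sites ranged from 15.6% to 27.2%. List medians ranged from -0.081 to -0.012 (cadherins), -0.12 to -0.013 (matrix), -0.064 to -0.013 (growth factor), -0.080 to -0.016 (axon guidance), -0.050 to -0.00058 (TGF-beta) and -0.039 to 0.070 (glutamate). Without Control replicate 2 the counts of opened sites were lowest in the average, with shARID1B.3 and with both.

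The replicate numbers did not pair the libraries: deviations of same-numbered libraries correlated at -0.148 to 0.078. With the replicate block 13450 sites closed and 6316 opened in the average, 4711 and 1165 with both, and promoters held 27.9% of opened sites.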
